A study of Homo sapiens with 2 samples.

Results

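TCL1A, FCRLA, CD38 and CD79A are best known from B lymphocytes, and their transcripts were followed here through cells of a carcinoma, the triple-negative breast cancer line SUM159. They were chosen from the measured values of these cells, in which TCL1A, FCRLA and CD38 had stood out, and they are 4 of the 373 panel genes in the files. The levels and folds below are therefore a description, and nothing was tested on them.

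SUM159 is an established human breast carcinoma line with a mesenchymal character. Its transcripts were counted in individual cells with the BD Rhapsody Onco-BC panel, which amplifies chosen genes and counts each captured molecule by its unique molecular identifier (UMI). There were 3 populations in each of 2 cultures, spheroids and attached monolayers. These were doxorubicin-resistant (DR) cells and paclitaxel-resistant (PR) cells, both selected as attached cells by long exposure to escalating doses (for doxorubicin with drug-free recovery, according to the study's methods), and the treatment-naïve (TN) cells they are set against. The resistant populations are each a single selected subline, and for spheroids the sample labels say treated where the series design says resistant. Each culture was loaded on its own cartridge with its populations marked by sample tags, and each population was sequenced without a replicate. No test was run, since the genes were chosen from these values and each population was measured once. Every interval is a 95% interval that covers counting error only, and culture and cartridge cannot be told apart.

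The files held 30122 cells, with 3776 DR, 3751 PR and 4362 TN cells in spheroids and 7032 DR, 5896 PR and 5305 TN cells in monolayers. Median depth was 1538.5 to 2340 UMIs per cell in spheroids and 3653 to 3814 UMIs per cell in monolayers, and totals ran between 8452574 and 29451390 UMIs. No cell label was shared within a cartridge and 264 labels occurred on both. The 18233 attached cells exceed the 15000 that were pooled according to the labels. All 10 epithelial and all 12 mesenchymal genes on the lists were above 0 in every population, with summed levels of 23560 to 36344 and 92897 to 259435 CPM (UMIs of a gene scaled to 1000000 UMIs of its population). The leukocyte gene PTPRC was between 0.23 and 9.10 CPM.

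B cells recognise antigen through a surface immunoglobulin that signals through the paired chains CD79A and CD79B. TCL1A is a small cofactor that binds and activates the kinase AKT, is made in early and naive B cells and is the oncogene activated by translocation in T cell leukaemia. FCRLA is a member of the Fc receptor-like family that stays inside the cell, where it can bind immunoglobulin, and is found mostly in germinal centre B cells. CD38 is a surface enzyme that consumes NAD, is abundant on plasma cells and also occurs on many cells outside the B lineage.

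The genes lie on different chromosomes. In GRCh38.p14, TCL1A is at chr14:95709947-95714125 on the minus strand, and FCRLA at chr1:161707229-161714352, CD38 at chr4:15778328-15853232 and CD79A at chr19:41877279-41881372 are on the plus strand. The promoter windows of TCL1A and FCRLA are shown because these genes carried the largest and opposite differences between populations. They are RefSeq windows of 300 bases in GRCh38.p14, with 250 bases before the annotated start and 50 after it, at chr14:95714076-95714375 (minus strand) and chr1:161706979-161707278 (plus strand). Capitals mark the places where a searched motif matched on either strand. The general promoter motifs were the TATA box, spelled TATAAA, and the GC box that binds SP1 factors, spelled GGGCGG. The motifs of lymphoid factors were the octamer of OCT2, spelled ATGCAAAT, and the core of EBF1, spelled CCCNNGGG. The E box of the E2A proteins was searched as CAGGTG, and the core site of the ETS factor PU.1 was searched as GAGGAA. Matches in these windows did not overlap.
TCL1A: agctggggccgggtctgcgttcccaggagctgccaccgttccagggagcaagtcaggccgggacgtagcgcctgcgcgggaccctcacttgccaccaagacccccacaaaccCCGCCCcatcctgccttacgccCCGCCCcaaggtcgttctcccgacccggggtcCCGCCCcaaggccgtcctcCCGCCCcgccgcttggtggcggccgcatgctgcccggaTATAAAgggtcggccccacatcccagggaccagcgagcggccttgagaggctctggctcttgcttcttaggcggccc
FCRLA: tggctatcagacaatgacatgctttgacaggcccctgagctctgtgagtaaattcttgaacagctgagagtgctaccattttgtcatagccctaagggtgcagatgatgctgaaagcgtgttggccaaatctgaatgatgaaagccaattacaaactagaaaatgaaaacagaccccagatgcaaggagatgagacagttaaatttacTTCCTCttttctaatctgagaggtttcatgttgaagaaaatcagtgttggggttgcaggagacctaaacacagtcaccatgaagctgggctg

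The windows differed in composition. That of TCL1A was 70.7% G or C with 26 CpG dinucleotides, and 81.2% of the 35116 RefSeq windows of this length had a lower G and C content. That of FCRLA was 43.3% G or C with 1 CpG, and only 3.96% of all windows had fewer. The TCL1A window held 1 TATAAA that began 27 bases before the start, a word found in 11.5% of all windows, and 4 GC boxes, found in 45.0%. The FCRLA window held 1 GAGGAA, found in 27.9% of all windows, read on the minus strand. The octamer, found in 1.77% of windows, and the EBF1 core, found in 19.1%, were in neither, nor in the windows of CD38 and CD79A, which each held 1 E box, found in 20.6%. These are matches of letters only.

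TCL1A was a transcript of the DR cells in both cultures. It had 795 UMIs in DR spheroids, 13 in PR spheroids and 52 in TN spheroids, and 582 UMIs in attached DR, 5 in attached PR and 4 in attached TN cells. This is a level of 75.4 CPM (70.2 to 80.8), 1.54 CPM (0.82 to 2.63) and 4.60 CPM (3.43 to 6.03) in DR, PR and TN spheroids. In monolayers it was 19.8 CPM (18.2 to 21.4) in DR, 0.21 CPM (0.069 to 0.50) in PR and 0.19 CPM (0.051 to 0.48) in TN cells. The interval of each DR population lay above those of the PR and TN populations of its culture, and the PR and TN intervals overlapped in monolayers but not in spheroids. These intervals take UMIs as independent, while 23 of the 52 TN spheroid UMIs were in 1 cell. By share of cells the PR and TN spheroid intervals overlapped. On the scale of CPM, TCL1A was 106-fold (41.1 to 389.7) higher in attached DR than TN cells, the highest fold of 268 genes with at least 50 UMIs in either, beside GPNMB at 105-fold, which lies within its interval. In spheroids it was 16.4-fold (12.4 to 22.1) higher in DR than TN cells, rank 8 of 260.

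FCRLA ran the other way and was a transcript of the TN cells. It had 358 UMIs in DR, 129 in PR and 6326 in TN spheroids, and 1979 in DR, 1696 in PR and 37567 in TN monolayers. Its level was 34.0 CPM (30.5 to 37.7) in DR, 15.3 CPM (12.7 to 18.1) in PR and 559 CPM (546 to 573) in TN spheroids. In monolayers it was 67.2 CPM (64.3 to 70.2) in DR, 72.5 CPM (69.1 to 76.0) in PR and 1754 CPM (1736 to 1771) in TN cells. FCRLA was 16.5-fold (14.8 to 18.4) lower in DR and 36.7-fold (30.8 to 44.0) lower in PR than in TN spheroids. It was 26.1-fold (24.9 to 27.3) lower in DR and 24.2-fold (23.0 to 25.4) lower in PR than in TN monolayers, so the resistant lines stood close to each other there.

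CD38 was sparse and lay mostly in TN monolayers. It had 5, 6 and 11 UMIs in DR, PR and TN spheroids, and 21, 55 and 148 UMIs in DR, PR and TN monolayers. The monolayer levels were 0.71 CPM (0.44 to 1.09) in DR, 2.35 CPM (1.77 to 3.06) in PR and 6.91 CPM (5.84 to 8.12) in TN cells, and their intervals did not overlap. In spheroids they were 0.47 CPM (0.15 to 1.11) in DR, 0.71 CPM (0.26 to 1.54) in PR and 0.97 CPM (0.49 to 1.74) in TN cells, with all 3 intervals overlapping. CD38 was thus 9.69-fold (6.11 to 16.1) lower in DR and 2.94-fold (2.14 to 4.08) lower in PR than in TN monolayers. In spheroids the ratios of DR and PR to TN cells were 0.49 (0.13 to 1.52) and 0.73 (0.22 to 2.15), and a difference was not detectable at this depth.

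CD79A, the signalling chain itself, varied least. It had 40, 48 and 34 UMIs in DR, PR and TN spheroids and 113, 154 and 81 UMIs in DR, PR and TN monolayers. Its level was 3.79 CPM (2.71 to 5.17), 5.68 CPM (4.19 to 7.53) and 3.01 CPM (2.08 to 4.20) in DR, PR and TN spheroids. In monolayers it was 3.84 CPM (3.16 to 4.61) in DR, 6.58 CPM (5.58 to 7.71) in PR and 3.78 CPM (3.00 to 4.70) in TN cells. PR cells had the highest level in both cultures, 1.74 times (1.32 to 2.31) that of TN cells in monolayers and 1.89 times (1.19 to 3.02) in spheroids, short of 2-fold or of 50 UMIs. The ratio of DR to TN cells was 1.01 (0.76 to 1.37) in monolayers.

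**Figure D1:**
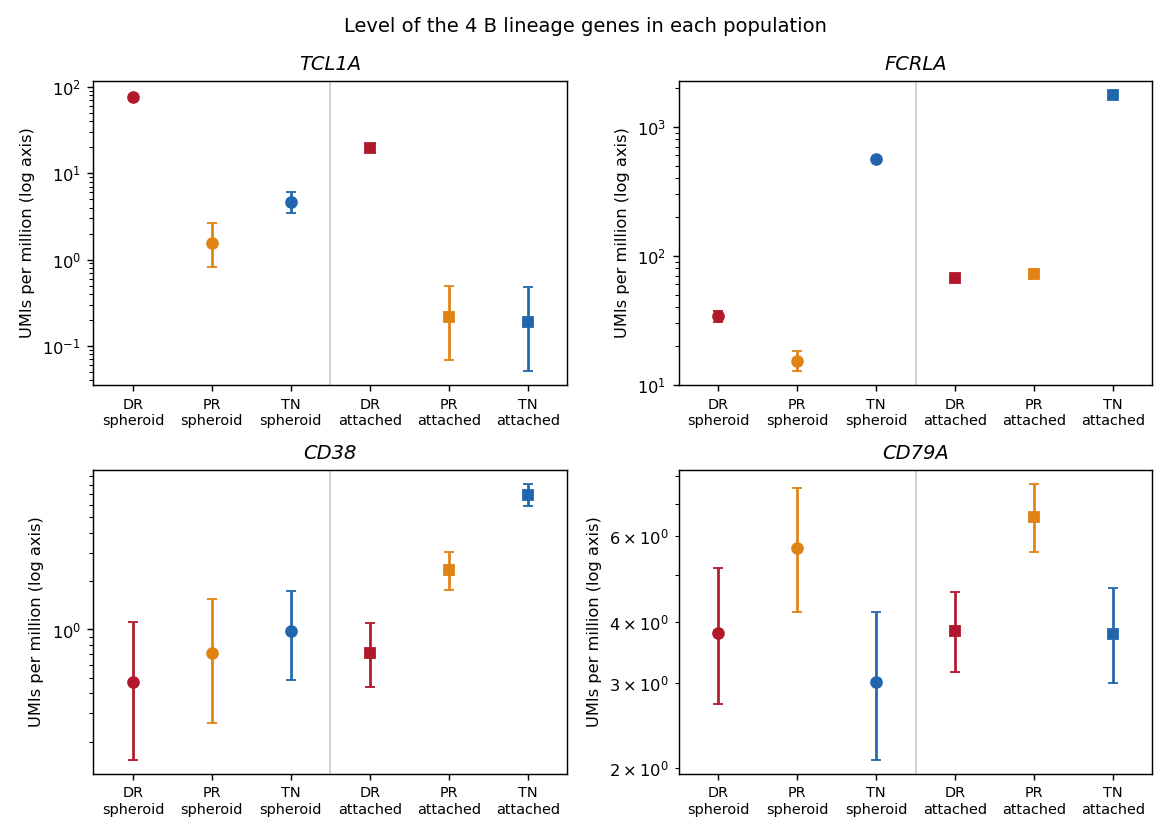
Level of each gene in CPM on a log axis, for DR, PR and TN spheroids (circles) and monolayers (squares), with exact Poisson 95% intervals of the count and no replicates. TCL1A is highest in the DR populations at 75.4 and 19.8 CPM, FCRLA in the TN populations at 559 and 1754 CPM, CD38 in TN monolayers at 6.91 CPM, and CD79A stays between 3.01 and 6.58 CPM.

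A gene was counted as higher or lower when its CPM differed at least 2-fold and the higher population had at least 50 UMIs. In attached DR against TN cells 1 of the 4 genes was higher, where 24.3% of 268 panel genes were, and 2 of 4 were lower, where 22.8% of panel genes were. In attached PR against TN cells 2 of 3 measured genes were lower, against 25.2% of 262 panel genes, and 0 were higher, against 20.2%. In DR against TN spheroids 1 of 2 was higher and 1 of 2 lower, against 16.5% and 17.3% of 260 panel genes. In PR against TN spheroids both measured genes, FCRLA and TCL1A, were lower, against 20.2% of 252 panel genes, and 0 were higher, against 9.92%. Since the genes were chosen from these contrasts, their counts are set beside the panel's and nothing is read from them.

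The TCL1A count of TN spheroids rested on few cells. Of its 52 UMIs 23 were in 1 cell, which had 7306 UMIs in all and 43 of ABCB1, the drug efflux pump that marks the resistant lines. Of the 19 TN spheroid cells with TCL1A, 4 had more than 5 ABCB1 UMIs, a level reached by 89 of the 4362 cells. This was not matched for depth, which had a median of 3116 UMIs in the 19 cells and 1535 in the others. Among TN spheroid cells of at least 1000 UMIs, the 235 whose panel profile lay nearest the DR mean held 36 TCL1A UMIs in 5 cells, and the 1924 nearest their own mean held 5 UMIs in 5 cells. Of these 36 UMIs, 23 were in the 1 cell already named. The profiles include TCL1A itself, so this split is not independent of TCL1A and nothing is read from it. TCL1A was 2.99-fold (1.61 to 5.99) lower in PR than TN spheroids, but 1.37-fold lower without the 89 cells, and the direction turned to 1.54-fold higher with only the cells nearest their own population. The last value rests on 6 TCL1A UMIs in 3 PR cells and 5 in 5 TN cells, too few to fix a direction. DR spheroids stood 35.9-fold above TN spheroids without the 89 cells and 28.2-fold without the cell with most TCL1A in each population, but 5.64-fold above them with each cell weighted equally. Whether tag errors or cell pairs account for these cells was not tested.

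**Figure D2:**
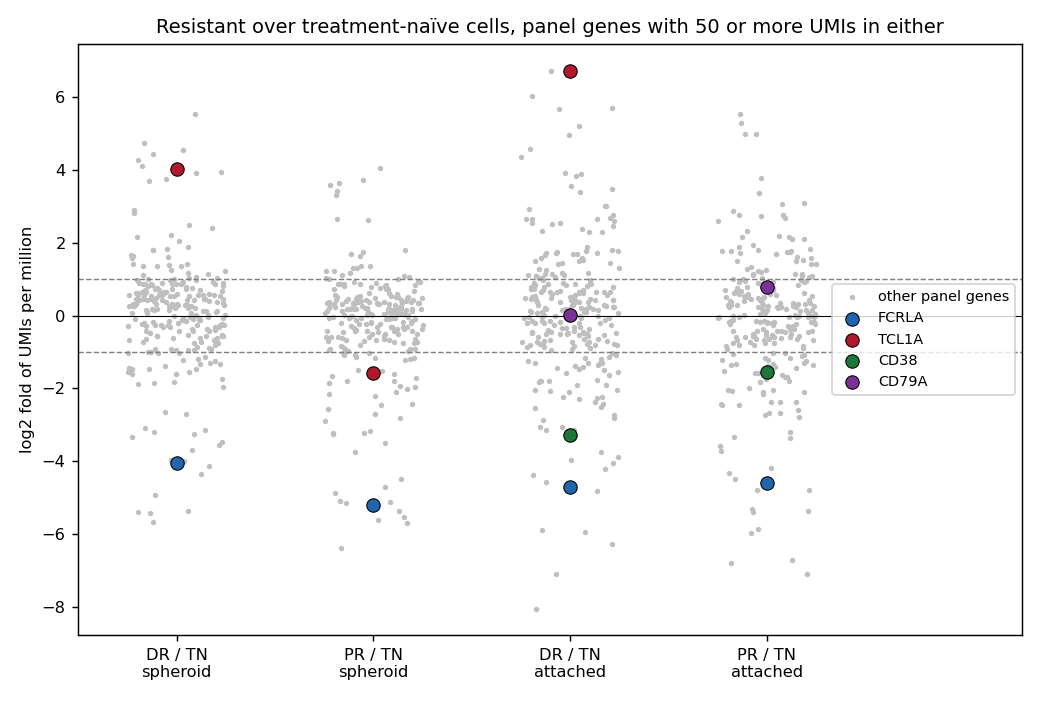
The log2 fold of CPM, resistant over TN, for every panel gene with at least 50 UMIs in either population and above 0 in both (grey) and for the 4 B lineage genes (coloured), with dashed lines at 2-fold. TCL1A tops the attached DR comparison at 106-fold, FCRLA lies 16.5-fold to 36.7-fold lower in all 4 comparisons, and CD79A lies at a ratio of 1.01 in the attached DR comparison.

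The resistant lines could be set against each other without the TN cells. TCL1A was 92.5-fold (39.4 to 286) higher in DR than PR monolayers, the highest of 261 genes, and 49.0-fold (28.5 to 92.5) higher in DR than PR spheroids, rank 3 of 251. HLA-DQB1, CD244 and CCL4, at 79.5-fold, 77.9-fold and 68.3-fold in monolayers, lie within its interval there. The spheroid value was 10.7-fold with each cell weighted equally. CD38 was 3.30-fold (1.96 to 5.74) lower in DR than PR monolayers. FCRLA had a DR to PR ratio of 0.93 (0.87 to 0.99) in monolayers and was 2.22-fold (1.81 to 2.74) higher in DR than PR spheroids. The spheroid ratio of FCRLA was 0.87 when each cell was weighted equally. By the size rule 1 of 4 was higher and 1 of 4 lower in monolayers, where 13.8% and 9.96% of panel genes were, and 2 of 2 were higher in spheroids, where 12.7% were.

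Between the cultures TCL1A and FCRLA differed in opposite directions. TCL1A was 3.82-fold (3.42 to 4.25) higher in DR spheroids than DR monolayers, and 24.6-fold (9.06 to 93.8) higher in TN spheroids than TN monolayers on 52 and 4 UMIs. Without the 89 ABCB1-high cells the TN value was 11.3-fold on fewer than 50 UMIs. FCRLA was 1.98-fold (1.77 to 2.22) lower in DR, 4.75-fold (3.97 to 5.72) lower in PR and 3.13-fold (3.05 to 3.22) lower in TN spheroids than in their monolayers. For PR cells this was 1.60-fold when each cell was weighted equally. CD38 was 3.31-fold (1.43 to 9.41) lower in PR and 7.10-fold (3.86 to 14.5) lower in TN spheroids than in their monolayers. CD79A ratios of spheroids to monolayers were 0.99 (0.67 to 1.43) in DR, 0.86 (0.61 to 1.20) in PR and 0.80 (0.52 to 1.20) in TN cells.

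The median panel gene itself shifted by -0.34 in DR, -0.41 in PR and -0.33 in TN cells on the log2 scale between spheroids and monolayers, and the TCL1A, FCRLA and CD38 changes above are larger than this shift. In DR cells 1 of 3 measured genes was higher in spheroids, against 17.9% of panel genes. In PR cells 2 of 3 were lower, against 24.3%. In TN cells 1 of 4 was higher, against 18.2%, and 2 of 4 were lower, against 24.2%.

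The share of cells with a transcript followed the same order. TCL1A was found in 250 DR spheroid cells (6.62%, 5.85 to 7.46), 10 PR (0.27%, 0.13 to 0.49) and 19 TN spheroid cells (0.44%, 0.26 to 0.68). In monolayers it was found in 272 DR cells (3.87%, 3.43 to 4.34), 5 PR cells (0.085%) and 4 TN cells (0.075%). The attached PR and TN cells, at 3653 and 3710 UMIs per cell, lack the gene almost wholly and give the background for a share in this cartridge. FCRLA was found in 208 DR (5.51%, 4.80 to 6.28), 100 PR (2.67%, 2.17 to 3.23) and 1190 TN spheroid cells (27.3%, 26.0 to 28.6). In monolayers it was found in 1375 DR (19.6%, 18.6 to 20.5), 1241 PR (21.05%, 20.01 to 22.1) and 4384 TN cells (82.6%, 81.6 to 83.6).

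Depth differed between the cultures, so cells were also thinned to 1000 UMIs, which left out 1218 DR, 1587 PR and 1920 TN spheroid cells and 0 DR, 1 PR and 0 TN attached cells that were shallower. TCL1A was then found in 4.51% of DR spheroid cells and 1.47% of DR attached cells, against 9.42% and 3.87% of the same cells unthinned. FCRLA was found in 2.38% of DR, 1.06% of PR and 23.6% of TN spheroid cells after thinning, and in 5.97% of DR, 6.56% of PR and 57.9% of TN attached cells. The unthinned shares of those cells were 7.39%, 3.47%, 44.8%, 19.6%, 21.03% and 82.6% in the same order. The order of the 6 populations was the same for both genes at equal depth.

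TCL1A was concentrated in few DR cells. If its 795 UMIs had fallen on DR spheroid cells in proportion to their depth, 666 cells would have held at least 1, and 250 did, a ratio of 0.38. In DR monolayers 554 cells were expected and 272 held it, a ratio of 0.49. In DR spheroids 39 cells with more than 5 UMIs, up to 33 in a cell, held 54.2% of the transcript, and in DR monolayers 15 such cells, up to 24 UMIs, held 22.5%. At the low end of this range, 125 DR spheroid and 149 DR attached cells had exactly 1 UMI.

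FCRLA was broader but still uneven. In TN monolayers 1883 cells with more than 5 UMIs, up to 187, held 83.4% of the transcript, and 4384 cells held it against 5255 expected from depth, a ratio of 0.83. In TN spheroids 297 such cells, up to 86 UMIs, held 71.9%, and the ratio of observed to expected cells was 0.52. In attached DR and PR cells the FCRLA UMIs were spread thinly, with 1018 of 1375 and 941 of 1241 cells at 1 UMI and ratios of 0.82 and 0.86. CD38 and CD79A were found almost only as 1 UMI: CD38 in 122 of 133 TN attached cells, CD79A in 146 of 150 PR attached cells.

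**Figure D3:**
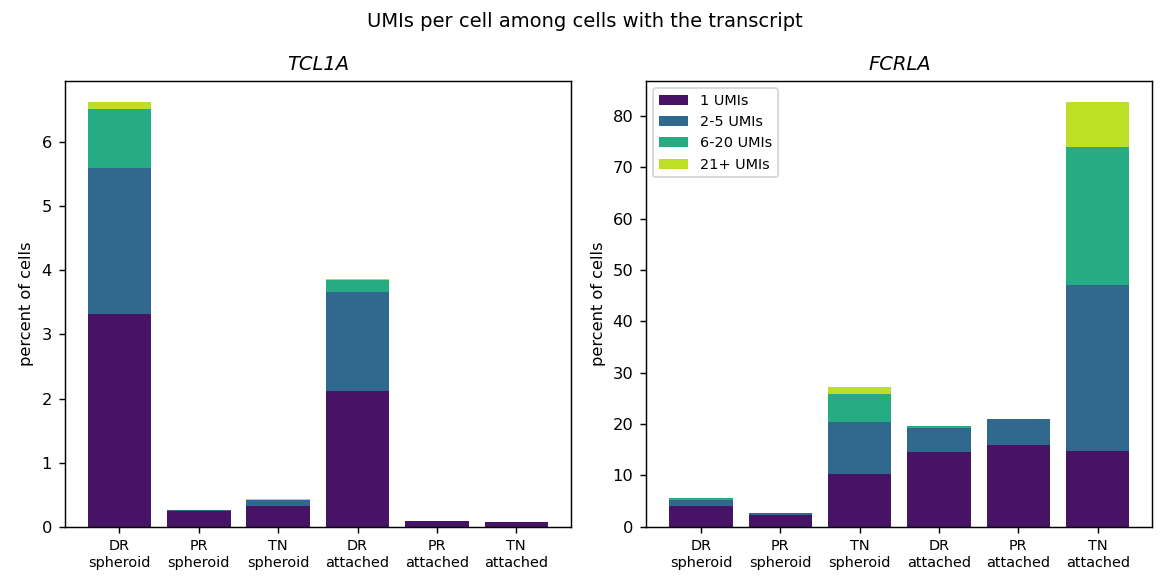
Percent of cells of each population with 1, 2 to 5, 6 to 20 and 21 or more UMIs of TCL1A (left) and FCRLA (right), on separate linear axes, with cells at 0 not drawn. TCL1A reaches 6.62% of DR spheroid cells and FCRLA 82.6% of TN attached cells, where the upper classes are widest.

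FCRLA was among the TN transcripts with least left in the resistant cells. Its level in attached DR cells was 3.83% of that in TN cells, rank 7 from the lowest of 194 genes with at least 1000 UMIs in TN monolayers, and in attached PR cells 4.13%, rank 9. IGFBP3, with 60479 UMIs in TN monolayers, stood at 0.73% in both, and ALDH1A1 at 0.38% in DR and 0.91% in PR cells. In spheroids FCRLA stood at 6.07% in DR cells, rank 4 of 181, and at 2.73% in PR cells, rank 3. The lowest shares there were 1.96% for IGFBP3 in DR cells and 1.20% for KRT14 in PR cells.

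The 4 genes were next looked for in the same cells. For each pair in each population, the cells with both were set beside the number expected if the genes were independent among cells of like depth, in 10 bins of depth. Of 36 pairs by population, 10 were expected in at least 5 cells, and in all 10 the interval of the observed number held the expected one. The ratios of observed to expected ran between 0.67 and 1.58.

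TCL1A and FCRLA were together in 22 DR spheroid cells against 20.6 expected (ratio 1.07, 0.67 to 1.62) and in 62 DR attached cells against 61.5 expected (ratio 1.01, 0.77 to 1.29). In TN spheroids they were together in 5 cells against 7.52 expected (ratio 0.67, 0.22 to 1.55). FCRLA and CD38 were together in 114 TN attached cells against 113.9 expected (ratio 1.00, 0.83 to 1.20) and in 14 PR attached cells against 11.0 expected (ratio 1.27, 0.69 to 2.13). FCRLA and CD79A were together in 71 TN attached cells against 67.2 expected (ratio 1.06, 0.83 to 1.33) and in 30 PR attached cells against 36.1 (ratio 0.83, 0.56 to 1.19). Each of these intervals holds 1 and also leaves room for a modest excess or deficit.

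TCL1A and CD79A had the highest ratio of the 10, 8 cells against 5.07 expected in DR monolayers (ratio 1.58, 0.68 to 3.11). The remaining 26 pairs by population held 32 cells with both genes against 31.3 expected. Over all populations 8 cells held 3 of the genes and 0 held all 4, which allows 3 of 30122 cells. Any of the 4 genes was found in 83.1% of TN attached cells, 28.0% of TN spheroid cells and 4.19% of PR spheroid cells.

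**Figure D4:**
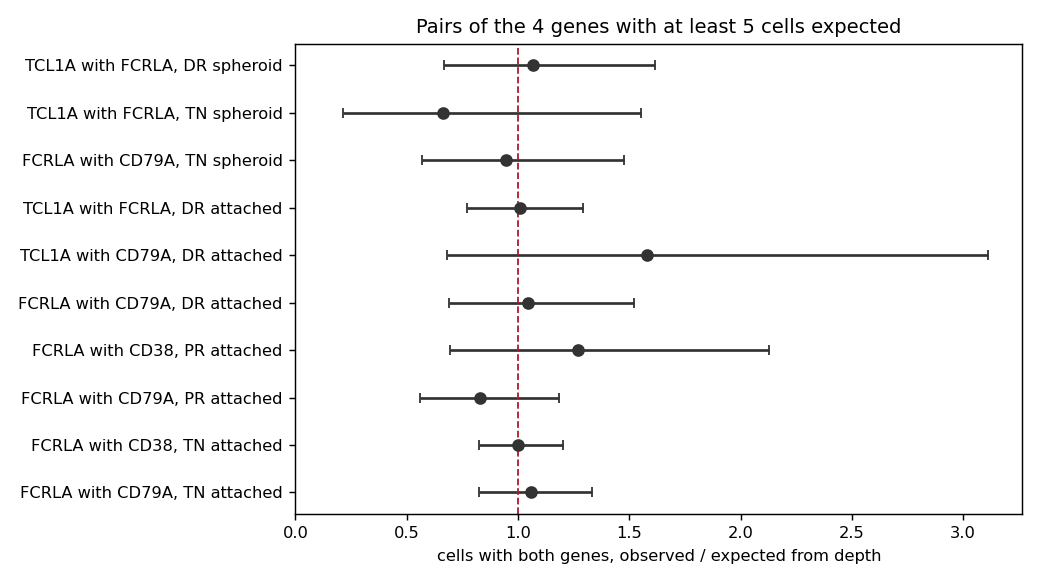
Cells with both genes of a pair, as a ratio of observed to expected from depth, with exact Poisson 95% intervals of the observed number, for the 10 pairs by population expected in at least 5 cells. All 10 intervals hold a ratio of 1, with TCL1A and FCRLA at 1.07 in DR spheroids and 1.01 in DR monolayers.

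The rest of the B lineage was looked for by a list. Of its 33 genes 19 were in the files, and 15 of these are not among the 4. CD79B, the partner chain of CD79A, had 30, 5 and 10 UMIs in DR, PR and TN spheroids and 7, 22 and 2 in DR, PR and TN monolayers, so it did not keep a fixed ratio to CD79A. CD27, a memory B and T cell receptor, had 3 UMIs in TN spheroids and 0 in the other 5 populations. IRF4, a plasma cell regulator, had 0 to 7 UMIs in a population.

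Immunoglobulin and J chain targets were near 0. The 9 targets together had 5, 16 and 5 UMIs in DR, PR and TN spheroids and 32, 21 and 7 in DR, PR and TN monolayers. IGHE_secreted had 13 UMIs in 3 attached DR cells, of which 11 were in 1 cell, and 2 in attached PR cells. IGLC3 had 8 UMIs in 3 PR spheroid cells and 3, 2 and 1 in attached DR, DR spheroid and attached PR cells. JCHAIN had 2 to 13 UMIs, at 1 UMI per cell, IGHG3_secreted 0 to 4 UMIs and IGHA1_secreted 0 to 3. IGHG1_membrane, IGHG1_secreted, IGHM_secreted and IGKC had at most 1 UMI in any population.

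XBP1 and BCL6 were the only other genes of the list with at least 50 UMIs in a population, and both also serve outside B cells. XBP1, a regulator of secretory capacity, had 4616 CPM in DR, 4496 in PR and 9435 in TN monolayers, and was 2.04-fold lower in DR and 2.10-fold lower in PR than TN cells. In DR, PR and TN spheroids XBP1 had 3744, 3900 and 3357 CPM. BCL6, a repressor of the germinal centre, had 252 CPM in DR, 254 in PR and 420 in TN monolayers, and 181, 162 and 317 CPM in DR, PR and TN spheroids. BCL6 was below 2-fold in each of these comparisons and lowest in the resistant cells of each culture. The median log2 fold of these 2 measured list members was -0.88 in attached DR and -0.90 in attached PR cells, beside 0.13 and -0.02 for all panel genes.

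Genes of other blood cells gave the setting. PTPRC, the pan-leukocyte gene CD45, had 17, 60 and 8 UMIs in DR, PR and TN spheroids and 81, 213 and 5 in DR, PR and TN monolayers. PTPRC was thus 11.8-fold higher in DR and 39.0-fold higher in PR than TN monolayers, and its order over populations was not that of TCL1A or FCRLA. The T and NK list of 11 genes summed to 84.3, 44.2 and 79.2 CPM in DR, PR and TN spheroids and 10.8, 3.50 and 8.50 CPM in DR, PR and TN monolayers, with 1 to 5 of its genes at 0. The myeloid list of 7 genes summed to 239 to 1521 CPM, with CD14 at 121.6, 166.9 and 700 CPM in DR, PR and TN monolayers.

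Genes around the B cell receptor and AKT were also listed. On the first list CD79A is left out as 1 of the 4 genes. CD79B had 7 and 2 UMIs in attached DR and TN cells, too few to be measured. LYN, SYK, BTK, BLNK and PLCG2 were not in the files. The 12 measured genes therefore hold no chain of the receptor and none of these signalling genes. Of 12 measured genes of the list on B cell receptor signalling and survival, 1 was higher and 7 lower in attached DR than TN cells, where 24.3% of panel genes were higher and 22.8% lower, with a median log2 fold of -1.26 beside 0.13 for all panel genes. MYB was 14.7-fold higher and CXCL12, the survival chemokine, 59.6-fold lower. In attached PR cells 2 were higher and 7 lower, beside 20.2% and 25.2% of panel genes, with a median of -1.45 beside -0.02. In DR against TN spheroids 1 of 12 was higher and 4 lower, beside 16.5% and 17.3% of panel genes, with a median of -0.86 beside 0.20. In PR against TN spheroids 3 of 12 were higher and 4 lower, beside 9.92% and 20.2%, with a median of -0.93 beside 0.0026. Of the AKT pathway, which TCL1A acts on, 3 genes were in the files. FOXO1, a transcription factor that AKT inhibits, was 4.82-fold lower in attached DR and 3.01-fold lower in attached PR than TN cells, and AKT1 was below 2-fold in these comparisons. In DR spheroids FOXO1 was 1.52-fold lower and AKT1 at a ratio of 1.56.

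The other transcripts of TCL1A-bearing cells were read within a population, at matched depth. In DR monolayers the 272 cells with TCL1A were richest in genes of antigen presentation by MHC class II. HLA-DRA was in 75 of them against 21.1 expected (ratio 3.56, 2.80 to 4.46), HLA-DRB1 in 46 against 9.57 (ratio 4.81, 3.52 to 6.41) and the invariant chain gene CD74 in 62 against 16.6 (ratio 3.73, 2.86 to 4.78). HLA-DQB1 was in 20 against 3.00 (ratio 6.66, 4.07 to 10.3) and CIITA, the class II master regulator, in 25 against 8.39 (ratio 2.98, 1.93 to 4.40). CD40, a costimulatory receptor on the same list, went the other way, in 65 against 92.0 (ratio 0.71, 0.55 to 0.90), and CD86 was in 0 against 1.24. At least 1 of HLA-DRA, HLA-DRB1 and CD74 was in 98 of the TCL1A cells (36.0%), against 9.17% of the cells without TCL1A. Among 231 genes expected in at least 5 TCL1A cells, the ratio had a median of 1.00 and a 95th percentile of 1.60, and HLA-DRB1 had the highest.

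Class II genes also went with TCL1A in DR spheroids, in fewer cells. HLA-DRA was in 12 of 250 TCL1A cells against 2.38 expected (ratio 5.03, 2.60 to 8.79), CD74 in 14 against 5.98 (ratio 2.34, 1.28 to 3.93) and HLA-DRB1 in 3 against 0.51 (ratio 5.84, 1.20 to 17.1). At least 1 of these 3 was in 20 TCL1A cells (8.00%), against 1.73% of the cells without TCL1A. In DR spheroids CD74 had the highest ratio of 238 genes expected in at least 5 TCL1A cells. CIITA was in 11 against 6.06 (ratio 1.81, 0.91 to 3.25), an interval that holds 1.

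TCL1A cells with class II transcripts were also read for the other B lineage genes. The 98 such DR attached cells had 4 UMIs of CD79A in 3 cells, 7.90 CPM against 3.77 CPM in the other DR attached cells. They held FCRLA in 27 cells (27.6%) against 19.4% of the other cells, without matching for depth. They had 1 UMI of PTPRC and 0 of CD79B, CD38 and the immunoglobulin and J chain targets, which at 0.24, 0.73 and 1.11 CPM in the other cells were too sparse for a 0 to tell them apart. All 98 held VIM and KRT18, 97 held KRT8 and 96 held ABCB1, at 11047 CPM against 7632 CPM in the other DR attached cells. Of those other cells 100% held VIM, 99.99% KRT18, 98.9% KRT8 and 88.3% ABCB1, so VIM and the keratins set nothing apart. The 20 DR spheroid cells with TCL1A and class II had 0 UMIs of CD79A, CD79B, CD38, PTPRC and the immunoglobulin and J chain targets. These were again at levels too sparse to compare. All 20 held VIM and KRT18, and 17 held ABCB1, at 6445 CPM against 6210 CPM in the other DR spheroid cells. Of the other DR spheroid cells 99.9% held VIM, 94.4% KRT18 and 67.1% ABCB1, without matching for depth. At matched depth ABCB1 had 1.07 times its expected UMIs in all TCL1A cells of DR monolayers and 0.77 times in those of DR spheroids. The median depth of the cells with TCL1A and class II was 4808.5 UMIs in monolayers and 3476.5 in spheroids.

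Single epithelial and secreted genes went with TCL1A, but the epithelial list as a whole split. By UMIs 4 of its 7 measured genes were above 1 and 3 below in DR monolayers (median 1.06), and 4 and 4 in DR spheroids (median 1.02). CDH3, which encodes P-cadherin, was in 58 TCL1A cells against 24.7 expected in DR monolayers (ratio 2.34, 1.78 to 3.03) and in 34 against 19.3 in DR spheroids (ratio 1.76, 1.22 to 2.46). The chemokine gene CXCL14 was in 110 against 68.8 (ratio 1.60, 1.31 to 1.93) and in 37 against 18.8 (ratio 1.97, 1.39 to 2.72). IL1RN, the interleukin 1 receptor antagonist, was in 34 against 15.8 (ratio 2.15, 1.49 to 3.01) and in 14 against 7.02 (ratio 1.99, 1.09 to 3.35). The growth factor gene AREG was in 130 against 96.2 (ratio 1.35, 1.13 to 1.60) and in 67 against 45.0 (ratio 1.49, 1.15 to 1.89). The peptidase gene MME was in 31 against 14.2 in DR monolayers (ratio 2.19, 1.49 to 3.11), while its interval in DR spheroids, 0.71 to 2.40, held 1. IL1RN and CDH3 were not particular to TCL1A. IL1RN was in 17 FCRLA cells of DR spheroids against 6.53 expected (ratio 2.60), the highest of 235 genes. CDH3 had 2.57 times its expected UMIs in FCRLA cells of DR monolayers. There 4 of 5 antigen presentation genes were above 1 and 1 below (median 1.49), and all 7 measured epithelial genes were above 1 (median 1.23). No share of all panel genes stands beside these counts for FCRLA, so nothing is read from them.

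In UMIs rather than cells, the DR monolayer ratios were led by CD74 at 651 against 57.3 expected (11.4-fold), HLA-DRB1 at 303 against 28.2 (10.7-fold), HLA-DRA at 762 against 84.4 (9.03-fold) and CXCL14 at 2687 against 430 (6.25-fold). Single cells weighed in these sums, with 225 CD74 and 724 CXCL14 UMIs in 1 cell. The lowest, secreted genes among them, were KRT14 at a ratio of 0.087, DCN at 0.33, CCL5 at 0.49, IGFBP5 at 0.51 and COL3A1 at 0.54. For KRT14, a basal keratin, the cells with both were 23 against 34.0 expected, so the deficit was mostly one of UMIs per cell. In DR spheroids CD3D had 193 UMIs against 34.1 (5.66-fold), of which 83 were in 1 cell. CCL4 and KRT5 were lowest, at 0.13 and 0.24. By cells CCL4 was not lower, in 4 TCL1A cells against 2.43 expected (ratio 1.65, 0.45 to 4.22). Its 554 UMIs in DR spheroids lay in 29 cells. Over 189 genes measured in both, the log2 ratios of DR spheroids and DR monolayers correlated with r = 0.56, given as a description across genes that share cells.

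**Figure D5:**
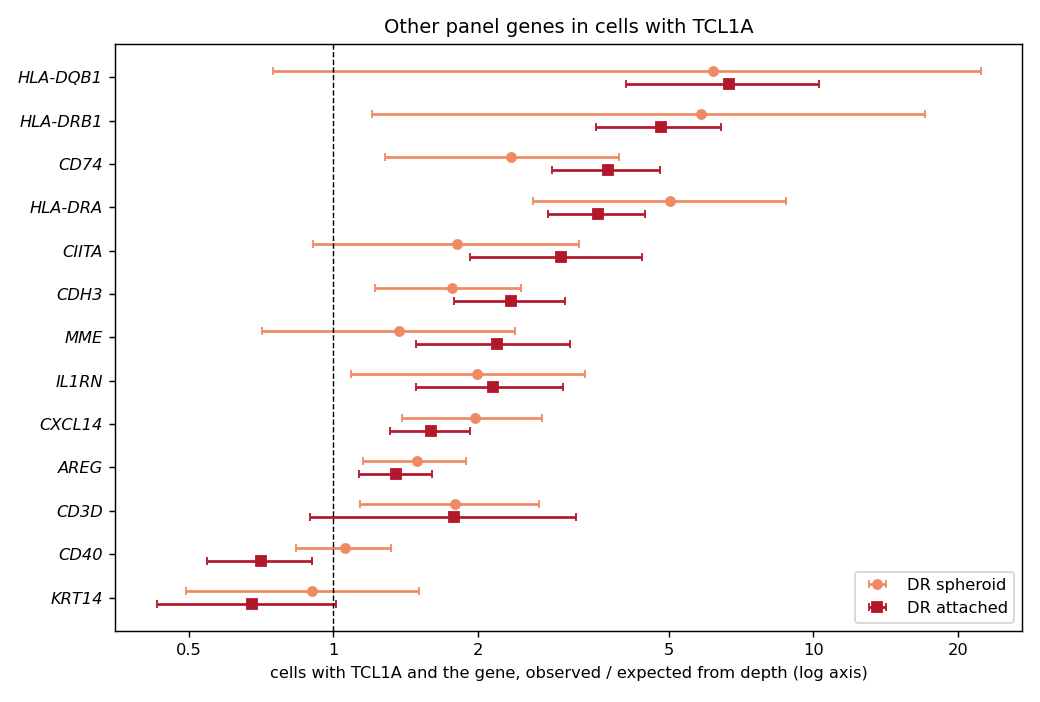
Cells with TCL1A and each named gene, as a ratio of observed to expected from depth on a log axis, with exact Poisson 95% intervals of the observed number, for DR spheroids (circles) and DR monolayers (squares). The class II genes lie highest, HLA-DRA at 5.03 in spheroids and 3.56 in monolayers, and CDH3 at 1.76 and 2.34.

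The other transcripts of cells with FCRLA were described in each TN culture. In TN monolayers 1883 cells with more than 5 UMIs of FCRLA were compared with the others at matched depth. IGFBP3 had 2.04 times its expected UMIs in them and AREG and KRT14 had 0.43 and 0.55 times. The integrin gene ITGB2 was in 130 of them against 92.8 expected and the cadherin gene CDH6 in 397 against 538. ALDH1A1, a stem cell enzyme, was in 333 against 399. All 7 measured epithelial genes were below 1, with a median of 0.77. No share of all panel genes stands beside this count, so nothing is read from it.

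In TN spheroids the 297 cells with more than 5 UMIs of FCRLA were read in the same way. CDH3 was in 162 against 107.9 expected, TP73, a p53 relative of basal epithelium, in 185 against 134 and the cyclin gene CCND2 in 63 against 42.6. The epithelial list split here, with 4 of 8 genes above 1 and 4 below (median 1.02) and KRT5 lowest at 0.34. PDGFRB, a receptor of mesenchymal cells, was in 182 against 220 and had 0.25 times its expected UMIs, and ABCB1 had 0.26 times. All 6 proliferation genes were below 1, with a median of 0.60, where 4 of 6 were above 1 in TN monolayers with a median of 1.13. These counts too have no panel share beside them and are a description. CD74 had 1.71 times its expected UMIs in the cells with more than 5 UMIs of FCRLA. With any UMI of FCRLA as positive, TN spheroid ratios were led by PTGDS at 19.2, HLA-DRA at 16.0, CCL3 at 12.1 and CD74 at 5.28 times the expected UMIs. Class II genes were thus among the highest by UMIs, with single cells weighing in these sums. By cells HLA-DRA was in 29 against 20.4 expected and CD74 in 53 against 45.4, with up to 27 and 57 UMIs in 1 cell. On the same definition the log2 ratios of TN spheroids and TN monolayers over 230 genes had r = -0.07, and those of attached DR and TN cells over 220 genes r = -0.00059. Only 921 TN attached cells lacked FCRLA, so a low r cannot tell unlike surroundings from noise in these ratios.

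With any FCRLA UMI as positive, 4384 TN attached cells stood against few cells without it, so single genes were uncertain. HLA-DRB1, at 107 UMIs against 21.8 expected, was in 62 cells against 57.0 expected, and FCGR3A, at 114 against 38.5, had 30 UMIs in 1 cell. CCNA1, ICOSLG and TGFB1 had 2.39, 2.07 and 1.97 times their expected UMIs. GRB7, PTGDS, AREG, CD274 and CD3D were lowest, at 0.36, 0.38, 0.48, 0.51 and 0.53.

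CD38 and CD79A, at about 1 UMI per cell, gave shallow contrasts. The 133 TN attached cells with CD38 had CCND2 at 1.70, THBS1 at 1.64, CDH3 at 1.56, CD74 at 1.55 and TSLP at 1.54 times the expected UMIs. DCN, COL3A1, CCL3, IL6 and PDGFRB were lowest, at 0.15, 0.26, 0.29, 0.37 and 0.46. For COL3A1 this was 39 cells against 54.6 expected and for PDGFRB 51 against 69.6. In the 150 PR attached cells with CD79A no gene with at least 50 UMIs observed or expected reached 1.5 times the expected UMIs. CCL5 was lowest at 0.29. By cells CDH3 was highest with CD79A there of 214 genes, in 11 against 5.92 expected (ratio 1.86). As the top of many genes on few cells, this value is a description only.

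Across the 6 populations the genes nearest each pattern were ranked by Pearson r of log2(CPM + 1) over 276 genes. Those of TCL1A were CCL4 (r = 0.99), CCNA1 (0.96), STK32B (0.96) and CD244 (0.95), all highest in DR spheroids. STK32B had 92.7 CPM in DR spheroids and 55.2 in DR monolayers, against at most 4.97 CPM elsewhere. C10orf54 and NEAT1 lay farthest from TCL1A, at -0.96 and -0.95. FCRLA ran with CCND2 (0.98), BCL6 (0.97), CA12 (0.96) and IKZF2 (0.95) and opposite to VIM (-0.98).

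CD38 ran with FOXO1 (0.98), CD40 (0.97), BBC3 (0.96) and EBF4 (0.94), all highest in TN monolayers, and opposite to JUN (-0.90) and GPNMB (-0.89). FOXO1 had 37.9, 60.7 and 182 CPM in DR, PR and TN monolayers. CD79A ran with PTPRC (0.90), BLVRA (0.88), LGALS1 (0.84) and CDH6 (0.83), all highest in PR cells of each culture, and opposite to RUNX3 (-0.89) and CDH3 (-0.86). With 6 points that share cartridges, many genes come this near: 15 genes exceeded r = 0.9 with FCRLA, 9 with CD38, 5 with TCL1A and 0 with CD79A. Among the 4 themselves the closest were FCRLA and CD38 (r = 0.75) and the farthest TCL1A and CD38 (r = -0.72).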

How the data were processed

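Each population came as a table of UMI counts by cell and panel gene, which the authors made with BD Rhapsody (genome build hg38 per the labels; aligner and versions not given in the sources used here). Files were matched to populations by name, since the labels do not tie files to tags. Counts were used as deposited, with every barcode kept and no doublet caller run; counts of a population were summed and given as CPM. Intervals are exact Poisson, Clopper-Pearson for shares, and conditional binomial for folds, at 95%, computed with Python 3.11.15, NumPy 2.4.6, SciPy 1.17.1 and pandas 2.3.3. No test was run: each combination of line and culture was measured once, and the genes were chosen from these values. UMIs of different genes depend on their primers, so nothing is read from the order of levels between genes. Expected cells and UMIs came from 10 bins of equal cell number by depth, less the genes compared, and a bin needed at least 5 cells without the gene. Procedures were tested on simulated data. The genes and gene lists were chosen with earlier results of these data known. Named partners are the 5 highest and 5 lowest UMI ratios in the population where most cells hold the gene. They were ranked among genes with at least 50 UMIs observed or expected there. Partners in other populations, by cell number or above 5 UMIs were named after their values were seen. Some genes of the lists are not reported here.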

Additional observations from a re-analysis of the deposited data

How the results depend on the processing

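Of 36 folds (4 genes in 9 comparisons) 19 passed 2-fold and 50 UMIs. Over 9 alternative settings these gave 171 values, of which 156 kept the call, 169 the direction and 15 lost the call, while 9 values of other folds gained one. TCL1A of PR against TN spheroids reversed to 1.54 with cells nearest their own population, on 6 PR and 5 TN UMIs. FCRLA of DR against PR spheroids reversed to 0.867 with each cell weighted equally. The cause of either reversal was not tested. The number of genes past the rule was 1 in place of 2 for PR against TN monolayers at 3-fold. It was 1 in place of 2 for PR against TN spheroids at 3-fold, with each cell weighted equally, with cells of at least 1000 UMIs, without cells over 3 times the median depth, with cells nearest their own population, without ABCB1-high cells and without the cell with most UMIs of the gene. It was 1 in place of 2 for DR against PR spheroids at 3-fold, scaled to the median gene or with each cell weighted equally, and 1 in place of 2 for PR spheroids against monolayers with each cell weighted equally. For DR spheroids against monolayers it was 2 in place of 1 with unscaled totals, cells of at least 1000 UMIs, cells nearest their own population, and without cells over 3 times the median depth or the cell with most UMIs. There FCRLA moved across 2-fold, at 2.02-fold lower with cells of at least 1000 UMIs, and TCL1A had a ratio of 1.37 in unscaled totals. TCL1A of DR against TN spheroids ranged between 5.64 with each cell weighted equally and 139 with cells nearest their own population. The value of 139 is set against 5 TN UMIs. CD79A of PR against TN monolayers reached 2.05 when the 5 most abundant genes were left out of the totals. The settings without ABCB1-high cells, without the top cell, and with more than 5 FCRLA UMIs were chosen after seeing the data. All 10 pairs expected in at least 5 cells held their expected number with 20 depth bins and with cells of at least 1000 UMIs; with no depth bins TCL1A with FCRLA in DR spheroids was at 1.60 and FCRLA with CD79A in TN spheroids at 2.11, above 1. No paired analysis was possible because the labels give no replicate numbers and the folds come from no test. Depth limits CD38 in spheroids, where 5 to 11 UMIs were counted, and TCL1A in attached PR and TN cells, with 5 and 4.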

Other observations

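Attached cells that lay nearer another population's panel profile than their own differed in FCRLA. In DR monolayers the 86 cells nearest the TN mean had 177 CPM of FCRLA, against 63.9 CPM in the 6053 cells nearest the DR mean, and in PR monolayers the 32 cells nearest the TN mean had 208 CPM, against 71.6 CPM in the 5416 nearest the PR mean. In TN monolayers the 218 cells nearest the DR mean still had 1474 CPM, against 1770 CPM in the 5015 nearest their own. The profiles include the 4 genes, so these values are a description.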
